A study of Mus musculus with 16 samples.

Results

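The 37 genes described here code for the glycolytic route and for the cell's response to low oxygen. They were taken as a named list and matched by symbol to the Ensembl identifiers of the count table, where all 37 were found among 55536 listed genes, and all 37 were among the 15316 genes with enough counts to be tested. By role, 22 carry glucose through glycolysis and lactate export, 4 sense oxygen and 11 are targets of the hypoxia-inducible factors (HIF). The cells were a mouse kidney inner medullary collecting duct line in which doxycycline (DOX) induces deletion of Pkd2, the gene for the cation channel polycystin-2. RNA was measured in 4 libraries each of passage 7 cells with DOX, passage 7 cells without DOX, passage 4 cells with DOX and passage 4 cells without DOX. All 16 libraries came from the Pkd2KO cells, whose genotype is labelled wild type without DOX and Pkd2 knockout with it. All were kept on permeable filters for 10 days, in renal epithelial medium with serum, and the treated ones had 2 ug/mL DOX for 6 days. There was no DOX-treated line without the inducible deletion, so an effect of the drug and an effect of losing Pkd2 cannot be told apart. The line was newly derived from a knockout mouse, and no label says that replicates were separate cultures, so each p-value sets a difference against the spread of these libraries, which may be technical.

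Glycolysis splits glucose into pyruvate. When pyruvate is not burned in mitochondria, lactate dehydrogenase turns it into lactate, which leaves through monocarboxylate carriers. HIF is a pair of proteins, an oxygen-labile alpha subunit (Hif1a or Epas1) and the partner ARNT. With oxygen present, the EGLN prolyl hydroxylases mark the alpha subunit for destruction through VHL, and when oxygen falls the pair accumulates, binds short DNA motifs and activates genes of glucose use, blood vessel growth and mitochondrial turnover. The renal inner medulla is poorly oxygenated, and its epithelium depends largely on glycolysis.

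The HIF motif holds the letters ACGTG or GCGTG. RefSeq promoter windows (GRCm38.p6, from 250 bases before to 50 bases after each start site) were available for 34 of the 37 genes, in 51 windows, and were not found for Ndrg1, Epas1 and Bnip3l. Either motif, searched on both strands, was present in 78.4% of these windows, in 60.7% of the windows of all tested genes and in 43.8% of all windows. The upstream stretches of 5 genes are shown, free of annotated exons and read 5′ to 3′, with motif letters of either strand in capitals. Ankrd37, Adm and Egln3 had the largest falls in replicates 3 and 4, and Ldha and Ldhb code for the lactate dehydrogenase subunits whose levels parted with DOX. They lie at chr8:45999868-46000100 (minus strand, ending 17 bases before the start site), chr7:110627407-110627656 (plus), chr12:54203875-54204124 (minus), chr7:46845554-46845803 (plus, the more upstream of 2 Ldha windows) and chr6:142507958-142508207 (minus).
Ankrd37: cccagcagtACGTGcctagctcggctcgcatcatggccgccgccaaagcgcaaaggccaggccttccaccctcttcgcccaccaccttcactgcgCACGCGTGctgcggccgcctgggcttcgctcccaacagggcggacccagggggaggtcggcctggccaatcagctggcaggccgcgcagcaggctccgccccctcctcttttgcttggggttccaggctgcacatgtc
Adm: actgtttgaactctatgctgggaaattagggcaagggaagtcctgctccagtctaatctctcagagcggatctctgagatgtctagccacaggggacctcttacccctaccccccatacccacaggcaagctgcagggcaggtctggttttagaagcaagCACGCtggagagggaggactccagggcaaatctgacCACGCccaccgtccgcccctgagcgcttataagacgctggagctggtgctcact
Egln3: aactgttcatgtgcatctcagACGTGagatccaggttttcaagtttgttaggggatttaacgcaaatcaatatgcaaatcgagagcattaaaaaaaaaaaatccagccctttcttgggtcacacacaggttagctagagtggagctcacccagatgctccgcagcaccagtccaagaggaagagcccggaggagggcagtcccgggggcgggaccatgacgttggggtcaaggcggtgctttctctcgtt
Ldha: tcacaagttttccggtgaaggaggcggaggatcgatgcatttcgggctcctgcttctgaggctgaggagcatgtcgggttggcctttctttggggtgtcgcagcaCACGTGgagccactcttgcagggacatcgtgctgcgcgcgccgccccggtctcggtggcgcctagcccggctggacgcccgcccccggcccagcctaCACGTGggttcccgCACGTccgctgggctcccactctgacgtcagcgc
Ldhb: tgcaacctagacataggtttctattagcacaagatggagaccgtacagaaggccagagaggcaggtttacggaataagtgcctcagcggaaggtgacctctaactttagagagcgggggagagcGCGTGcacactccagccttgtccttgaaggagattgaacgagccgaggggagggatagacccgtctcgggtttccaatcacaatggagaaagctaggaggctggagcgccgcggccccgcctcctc
The Ldha stretch held ACGTG 5 times, counting each strand, because CACGTG occurs there 2 times and reads the same on both strands. The Ldhb stretch held GCGTG 1 time and no ACGTG, the Adm stretch held GCGTG 2 times, Egln3 held ACGTG 1 time, and Ankrd37 held ACGTG 1 time and GCGTG 2 times, with a copy on each strand overlapping. A match describes these letters and shows no binding.

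Library totals ran from 9937504 to 17188295 counts, the deepest being passage 4 with DOX, replicate 2. The column headers of the deposited TPM table did not match those of the count table: compared over 10356 genes, 12 of 16 TPM columns were most like the count column of another library. The count headers were used, because under them Pkd2 was lower in all 8 libraries with DOX than in all 8 without, and under the TPM headers in none. Pkd2 was at 52.1, 47.8, 53.6 and 57.4 CPM (counts scaled to library size, with TMM factors) in passage 4 libraries with DOX, against 145, 142, 135 and 138 CPM without it, a log2 fold change of -1.41 (SE 0.08, edgeR adjusted p = 8.8e-10), and at passage 7 the change was -1.71 (SE 0.08, edgeR adjusted p = 4.3e-11). An exact 2-sided permutation test of Pkd2 gave p = 0.0286 at each passage, the smallest that its 70 arrangements allow. Since Pkd2 decided between the headers, it is no separate check of them. For 8 of the 16 columns the tables also disagree on the passage, and for 8 on the replicate pair. Pkd2 says nothing of these labels, which were taken as the count headers give them and not checked, and all passage and replicate results rest on them. Of the 17 principal cell markers listed, 12 were tested. The keratin genes Krt8 and Krt18, Cdh1, Cdh16, Scnn1a and Hoxb7 were well expressed. Hsd11b2, Gata3 and Tfap2b averaged 10.6, 6.9 and 4.24 CPM over the 16 libraries. Scnn1b, Scnn1g and Avpr2 averaged only 1.62, 1.15 and 0.993 CPM. Aqp2, the vasopressin-regulated water channel that defines these cells, had no count in any library, and Aqp3, Aqp4, Fxyd4 and Elf5 were near 0. Each list of markers of fibroblasts, endothelium and other tubule segments summed to at most 29.0 CPM in any library, most of it Atp6v0d2 or Slc5a2. In RNA from whole cultures, fewer cells of a type and less RNA per cell cannot be told apart.

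Differences below are log2 fold changes from edgeR's quasi-likelihood test, called where the Benjamini-Hochberg adjusted p over the 15316 tested genes was under 0.05. Levels per kilobase of exon spanned a wide range. Aldoa, the aldolase of the main pathway, was highest with an average of 700 CPM per kb over the 16 libraries. It was followed by the pyruvate kinase gene Pkm (452), Gapdh (418), Ldha (368) and Tpi1 (350). Exon lengths count every annotated exon of a gene, so this order depends on them. In CPM, without regard to length, the order began with Pkm (2260), Aldoa (2040), Gapdh (1730), Ldha (1220) and Eno1 (1120). Aldoc, the brain-type aldolase, stood at 6.94 CPM per kb and Eno2, the neuronal enolase, at 0.61. Hif1a stood at 22.9 CPM per kb and Epas1, which codes for HIF-2 alpha, at 0.466. The lowest was Car9, the carbonic anhydrase gene often used as a marker of hypoxia, at 0.282.

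**Figure D1:**
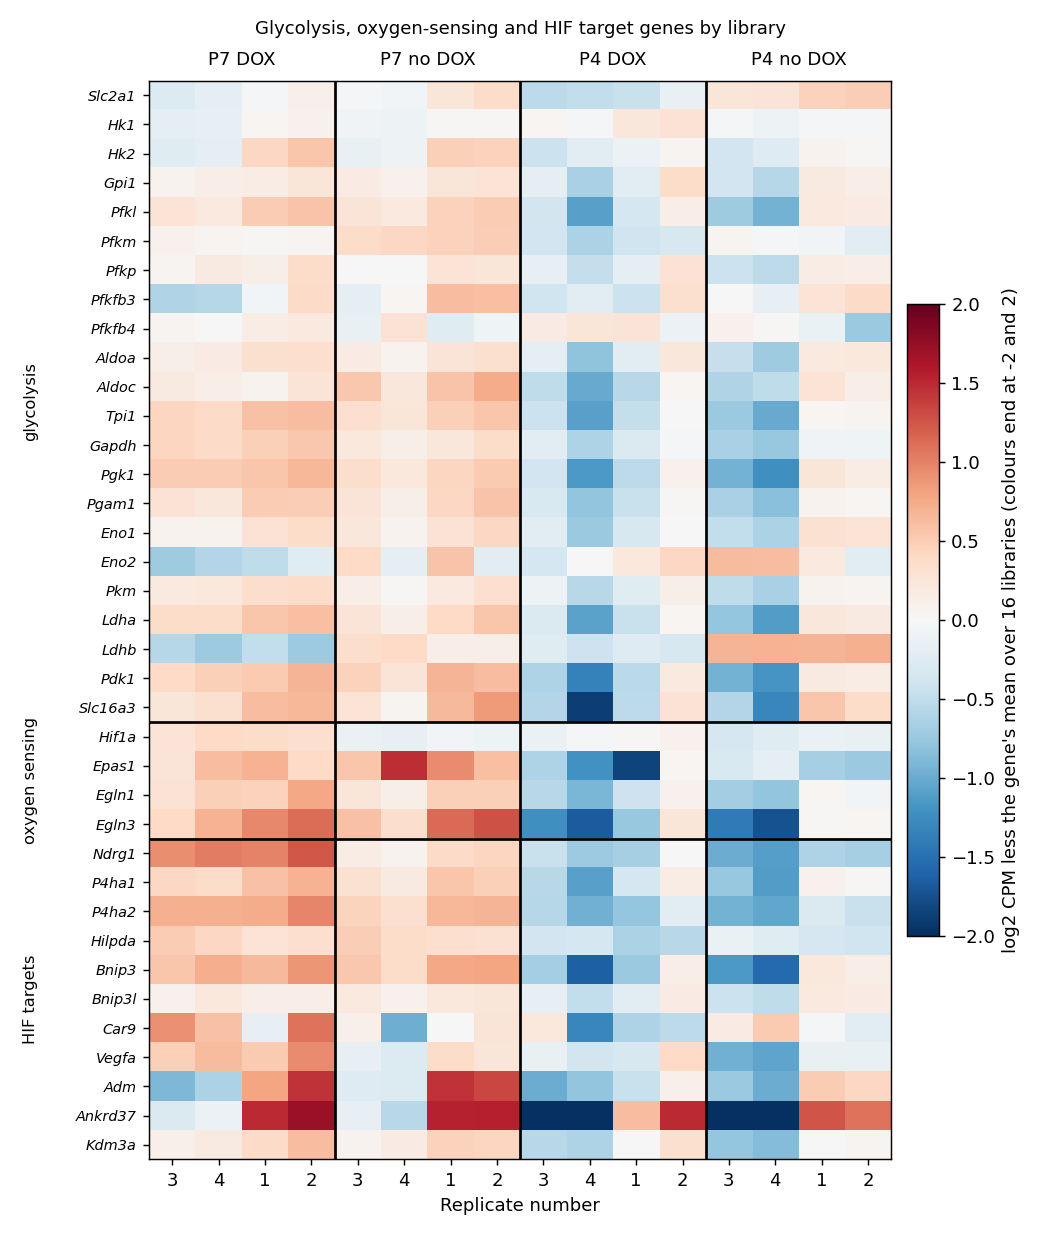
Each row is a gene and each column a library, ordered by group and replicate number; the colour is log2 CPM less the gene's mean over the 16 libraries. Most rows are darker red at passage 7 (left) than at passage 4 (right). Replicates 3 and 4 are mostly bluer than replicates 1 and 2, except in rows such as Ldhb, Pfkm and Hilpda. The exception by group is passage 4 with DOX, where replicate 1 is about as blue as replicate 3 and replicate 2 is redder.

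DOX was accompanied by few changes among the 37 genes. The lactate dehydrogenase B gene Ldhb and the muscle-type phosphofructokinase gene Pfkm fell at both passages, the glucose transporter gene Slc2a1 fell at passage 4, Hif1a rose at both passages, and Ndrg1, a growth-arrest and stress gene induced by HIF, rose at passage 7. At passage 4, 1 gene rose and 3 fell among the 37, where 8.45% of all tested genes rose and 9.1% fell. At passage 7, 2 rose and 3 fell, against a background of 11.1% and 11.6%. The shares of the 37 are near the background or below it. Libraries with and without DOX did not overlap for 5 genes above and 3 below at passage 7, where 12.4% and 12.8% of tested genes were so, and for 0 above and 3 below at passage 4, where 10.3% and 11.0% were. The median log2 fold change of the 37 genes was -0.10 at passage 4 and 0.03 at passage 7, beside 0.00 and -0.01 over all tested genes. The passage 4 median had the other sign in replicates 3 and 4 alone (0.11), without passage 4 replicate 4 with DOX (0.06) and without passage 4 replicate 1 or 2 without DOX (0.07 and 0.05).

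Ldhb codes for the heart-type subunit of lactate dehydrogenase. At passage 7 it stood at 275, 233, 260 and 234 CPM in libraries with DOX, against 423, 418, 496 and 509 CPM without it (replicates 1 to 4). At passage 4 it stood at 324, 311, 329 and 290 CPM with DOX, against 623, 633, 620 and 627 CPM without it. Every library with DOX lay below every library without it at the same passage. The log2 fold change was -0.88 (SE 0.07, edgeR adjusted p = 4e-08) at passage 7 and -1.0 (SE 0.07, edgeR adjusted p = 1.1e-08) at passage 4, and it did not differ detectably between the passages (difference 0.12, SE 0.10, edgeR adjusted p = 0.72). Ldha, the muscle-type subunit, showed no called DOX difference, with 0.13 (SE 0.28, edgeR adjusted p = 0.80) at passage 7 and -0.13 (SE 0.28, edgeR adjusted p = 0.81) at passage 4.

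The share of Ldha in the summed per-kilobase level of both subunits followed from this. It was 75.0% ± 2.09 (SD, n = 4) at passage 7 with DOX, against 59.7% ± 5.44 (SD, n = 4) without it. At passage 4 it was 56.0% ± 7.04 (SD, n = 4) with DOX, against 40.5% ± 11 (SD, n = 4) without it. These passage 4 shares overlapped, with replicate 4 with DOX at 47.1% and replicates 1 and 2 without DOX at 50.4% and 49.2%. The share depends on the exon lengths used, 3310 bases for Ldha and 1570 for Ldhb. In CPM, without regard to length, Ldha averaged 958 and Ldhb 626 at passage 4 without DOX. The share was lowest in replicates 3 and 4 of passage 4 without DOX, at 33.9% and 28.6%, and highest in replicate 2 of passage 7 with DOX, at 77.8%. It is given as a description, without a test, because the ratio was chosen after the values had been seen.

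**Figure D2:**
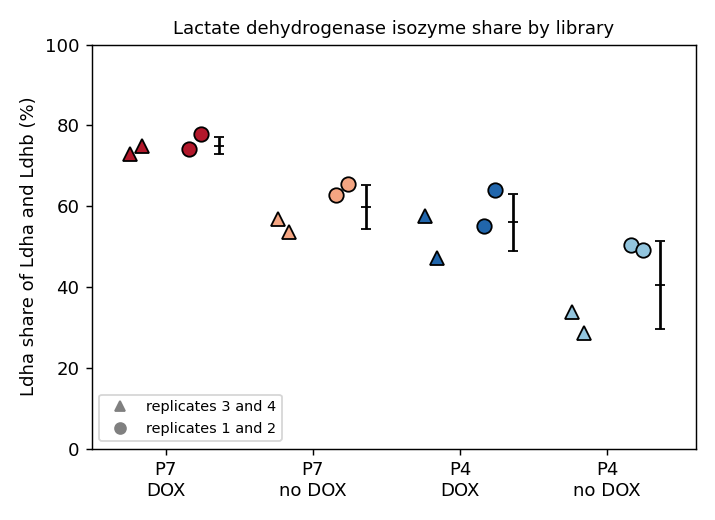
The vertical axis is the percentage of Ldha in the sum of Ldha and Ldhb per kilobase, for each of the 16 libraries; triangles are replicates 3 and 4, circles replicates 1 and 2, and the bars beside them give the mean and SD (n = 4). The libraries with DOX at passage 7 lie together near 75.0%, and those without DOX at passage 4 spread around 40.5%.

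Pfkm is 1 of 3 genes for phosphofructokinase, the main control step of glycolysis. At passage 7 it had 42.3, 43.3, 44.3 and 43.3 CPM with DOX, against 57.4, 58.9, 54 and 55.3 CPM without it. In passage 4 libraries it had 31.6, 33.3, 32.1 and 26.9 CPM with DOX, against 40.3, 36.1, 43.3 and 40.9 CPM without it. The groups did not overlap at either passage, and the falls were alike in size, -0.38 (SE 0.07, edgeR adjusted p = 0.0005) at passage 7 and -0.37 (SE 0.07, edgeR adjusted p = 0.00099) at passage 4. In replicates 1 and 2 alone the fall at passage 4 was -0.23 (edgeR adjusted p = 0.056), and in replicates 3 and 4 alone -0.52 (edgeR adjusted p = 2.3e-05). The liver and platelet forms Pfkl and Pfkp, which were more abundant per kilobase, had DOX differences from -0.11 to 0.05 and no call.

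Slc2a1 codes for GLUT1, which brings glucose into the cell. At passage 4 it had 241, 294, 227 and 232 CPM with DOX, against 452, 458, 385 and 393 CPM without it, and the groups did not overlap. The fall was -0.76 (SE 0.11, edgeR adjusted p = 8.8e-05). At passage 7 it had 321, 351, 270 and 290 CPM with DOX, against 387, 422, 321 and 316 CPM without it, and the groups overlapped. The passage 7 difference was -0.23 (SE 0.11, edgeR adjusted p = 0.14). With the replicate number as a block it passed the threshold, at -0.23 (edgeR adjusted p = 0.00045), and the block also called the difference between the passages, 0.54 (edgeR adjusted p = 2e-05), which was 0.53 (SE 0.15, edgeR adjusted p = 0.12) without it.

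Hif1a had 171, 168, 161 and 175 CPM at passage 7 with DOX, against 128, 124, 122 and 119 CPM without it. Passage 4 libraries had 136, 141, 121 and 131 CPM with DOX, against 122, 120, 105 and 112 CPM without it. At passage 7 every library with DOX lay above every library without it, whereas at passage 4 the replicate 3 library with DOX lay below replicate 1 without it. The rise was 0.45 (SE 0.06, edgeR adjusted p = 1.4e-05) at passage 7 and 0.20 (SE 0.06, edgeR adjusted p = 0.018) at passage 4. The passage 4 call was lost without replicate 1 or replicate 2 with DOX, at 0.19 and 0.17, and without replicate 3 without DOX, at 0.16. The rises differed between the passages by 0.25 (SE 0.08), with an edgeR adjusted p of 0.19, and of 0.026 with the replicate block. Hif1a shares 5.6% of its exon bases with Gm15283, an antisense gene with 6047 counts against 28960 for Hif1a.

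Epas1 showed no called DOX difference, with -0.43 (SE 0.26, edgeR adjusted p = 0.27) at passage 7 and -0.24 (SE 0.33, edgeR adjusted p = 0.69) at passage 4. The hydroxylase genes Egln1 and Egln3 had DOX differences from -0.10 to 0.17, none called.

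Among the 11 HIF targets, Ndrg1 was the only gene called at either passage without the block. It had 593, 703, 570 and 605 CPM at passage 7 with DOX, against 389, 400, 329 and 313 CPM without it, without overlap. At passage 4 it had 188, 296, 218 and 180 CPM with DOX, against 194, 188, 150 and 139 CPM without it, and the groups overlapped. The difference was 0.79 (SE 0.15, edgeR adjusted p = 0.0012) at passage 7 and 0.40 (SE 0.15, edgeR adjusted p = 0.086) at passage 4, where the replicate block made the call (0.39, edgeR adjusted p = 0.0096). In replicates 1 and 2 alone the passage 7 rise was 0.72, with an edgeR adjusted p of 0.11. Ndrg1 overlaps the antisense gene Gm17035, with 20746 counts against 74068, over 6.35% of its exon bases.

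Vegfa, the vascular growth factor gene, was called only in the average over both passages, at 0.52 (SE 0.17, edgeR adjusted p = 0.033). It had 350, 470, 339 and 379 CPM at passage 7 with DOX, against 314, 288, 217 and 202 CPM without it, and these groups did not overlap. In replicates 3 and 4 alone the averaged rise was 0.77 (edgeR adjusted p = 2.7e-12), and in replicates 1 and 2 alone 0.35 (edgeR adjusted p = 0.29). The call in all libraries was lost without passage 7 replicate 2 with DOX (0.46), passage 7 replicate 3 or 4 without DOX (0.49 and 0.47), passage 4 replicate 2 with DOX (0.42), or passage 4 replicate 3 or 4 without DOX (0.46 and 0.45). Eno2 was called lower at passage 7, with 1.94, 2.33, 1.68 and 1.84 CPM with DOX against 4.07, 2.37, 3.61 and 2.41 CPM without it, at -0.69 (SE 0.24, edgeR adjusted p = 0.047). That call was lost in 8 of 16 fits that each left out 1 library, among them the fits without passage 7 replicate 1, 3 or 4 with DOX or replicate 1 or 3 without it, at -0.81 to -0.53 over all 16 fits.

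Averaged over both passages, 3 of the 37 genes rose and 4 fell, where 15.7% of all tested genes rose and 16.6% fell. For the difference between the passages in DOX response, edgeR's quasi-likelihood test called 0 of the 37, beside 0.516% of tested genes called higher and 0.679% lower. At an unadjusted p under 0.05, edgeR gave 3 of the 37, and 11.5% of all tested genes. DESeq2 called 1 of the 37, Slc2a1, higher at 0.53 (DESeq2 adjusted p = 0.04), where it called 0.934% of tested genes higher and 1.34% lower. With the block, 3 genes rose and 5 fell at passage 7, where 15.3% of tested genes rose and 16.5% fell, and 3 rose and 4 fell at passage 4, where 13.3% and 14.0% did. The genes that the block added were Vegfa (0.61, edgeR adjusted p = 0.02), Slc2a1 and the phosphofructokinase-2 gene Pfkfb3 (-0.48, edgeR adjusted p = 0.024) at passage 7. At passage 4 it added Ndrg1, the hexokinase gene Hk1 (0.17, edgeR adjusted p = 0.0076) and the lipid droplet gene Hilpda (-0.20, edgeR adjusted p = 0.049), and in the average over the passages Aldoc and Pfkfb3 among the falls. That average then held 3 rises and 6 falls, where 20.2% and 21.7% of tested genes rose and fell, and the difference between the passages held 2 genes, Slc2a1 and Hif1a, where 1.87% of tested genes were higher and 2.79% lower.

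**Figure D3:**
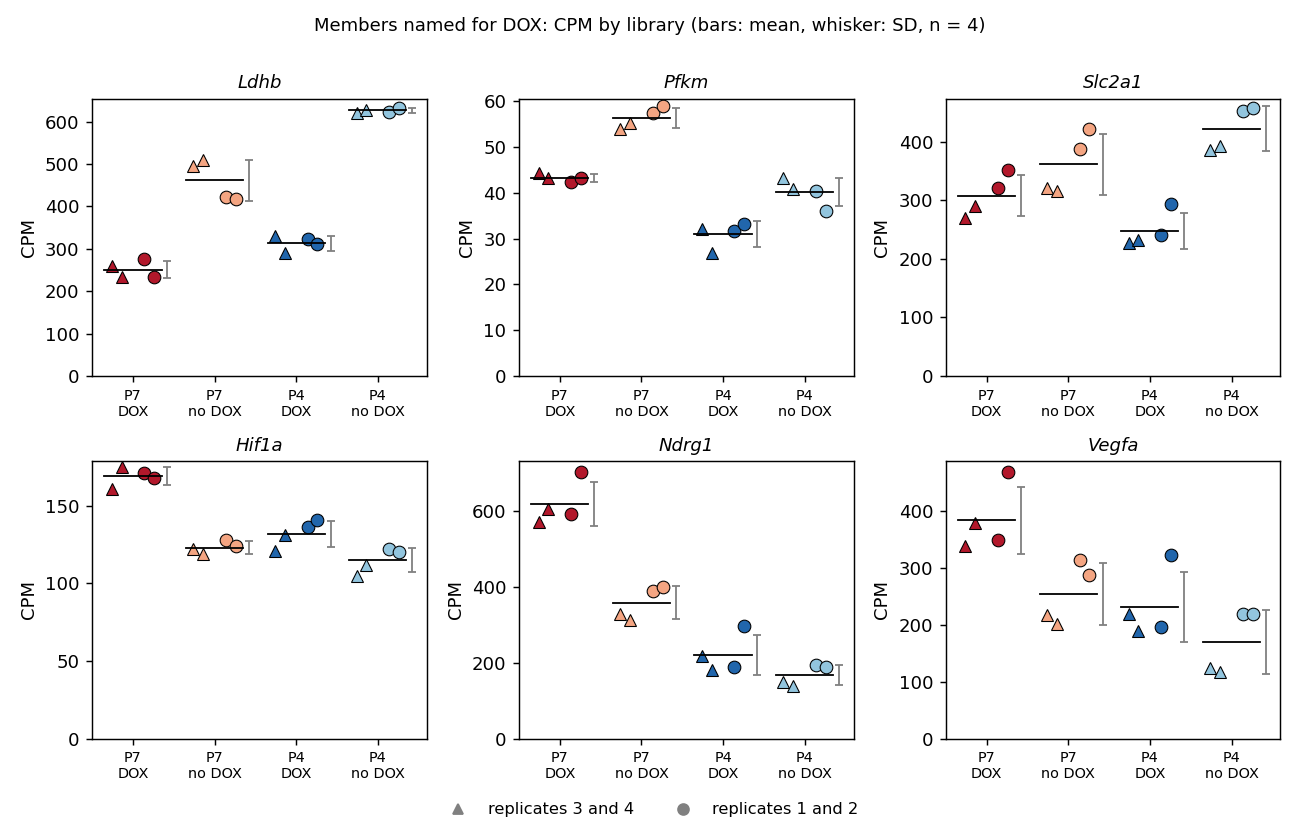
CPM of 6 genes in each library, by group; triangles are replicates 3 and 4, circles replicates 1 and 2, horizontal bars group means and grey whiskers the SD (n = 4). Ldhb and Pfkm lie lower with DOX at both passages without overlap, Slc2a1 is set apart most at passage 4, and Hif1a and Ndrg1 are highest at passage 7 with DOX.

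The levels of other cell type markers moved with DOX as well. The 6 leukocyte markers, of which 3 were tested, summed to 36.1 to 43.7 CPM at passage 7 with DOX, against 67.1 to 75.2 CPM without it. At passage 4 they summed to 20.1 to 35.5 CPM with DOX, against 38.9 to 46.9 CPM without it. Most of the sum came from Csf1r and Cd68, and Adgre1 and Itgam were at 0 in every library. Ptprc, which codes for the pan-leukocyte marker CD45, averaged 0.063 CPM at passage 7 with DOX, against 1.02 CPM without it, and 0.971 CPM at passage 4 with DOX, against 3.26 CPM without it. The 17 principal cell markers summed to 3920 to 4320 CPM at passage 7 with DOX, against 4880 to 5380 CPM without it, and to 3340 to 3530 CPM at passage 4 with DOX, against 4380 to 4600 CPM without it. Krt8 and Krt18, which made up most of that sum, fell at both passages. At passage 7 Hsd11b2 (-1.22), Hoxb7 (-0.44) and Cdh16 (-0.43) were also called lower. By contrast, Scnn1a rose at both passages, by 0.35 at passage 7 and 0.40 at passage 4, and Gata3 rose at passage 4, by 0.55. The 7 fibroblast markers, of which 2 were tested, summed to 3.69 to 6.61 CPM at passage 7 with DOX, against 2.49 to 3.72 CPM without it, and to 1.21 to 1.88 CPM at passage 4 with DOX, against 0.799 to 1.26 CPM without it. Dcn rose at both passages, by 1.15 and 1.52, and Col3a1 and Lum were at 0 in every library. The part of these markers in the DOX results was not tested.

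Of 91 further genes of the same pathways, 79 were tested. At passage 7, 4 rose and 2 fell with DOX, where 11.1% of all tested genes rose and 11.6% fell. At passage 4, 4 rose and 6 fell, where 8.45% and 9.1% did. Stc2, a stanniocalcin gene induced by HIF and by stress of the endoplasmic reticulum, rose by 1.73 (SE 0.12, edgeR adjusted p = 1.3e-08) at passage 7 and 1.15 (SE 0.12, edgeR adjusted p = 3.4e-06) at passage 4. Slc16a1, which codes for the lactate and pyruvate carrier MCT1, rose at both passages. It had 68.4, 75.2, 69.9 and 78.2 CPM at passage 7 with DOX, against 41.2, 45.3, 33.6 and 31.8 CPM without it, a rise of 0.94 (SE 0.12, edgeR adjusted p = 2.4e-05), and rose by 1.02 (SE 0.13, edgeR adjusted p = 1.9e-05) at passage 4. The cullin gene Cul2 (0.23) and the phosphatase gene Tigar (0.24) also rose at passage 7, and the glycerol phosphate dehydrogenase gene Gpd1 (0.37) and the HIF-alpha family gene Hif3a (0.64) at passage 4.

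Arnt2, which codes for a HIF partner related to ARNT, fell by 1.0 (SE 0.18, edgeR adjusted p = 0.00056) at passage 7 and by 0.98 (SE 0.15, edgeR adjusted p = 0.00015) at passage 4. The pyruvate kinase gene Pklr fell at passage 7 by 0.76 (SE 0.15, edgeR adjusted p = 0.00077). At passage 4 the heme oxygenase gene Hmox1, the bisphosphoglycerate mutase gene Bpgm and the pyruvate dehydrogenase kinase gene Pdk3 also ranked among the falls, at -0.64, -0.32 and -0.32. Hmox1 was the 1 gene of the 79 whose DOX response was called different between the passages, beside 0.516% of all tested genes higher and 0.679% lower.

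Passage moved many more of the 37 genes, nearly all upward. Ndrg1, the collagen prolyl hydroxylase gene P4ha2, Hilpda, Pfkm and Gapdh were higher at passage 7 both with and without DOX, and Ldhb was lower in both. With DOX, 22 of the 37 were higher at passage 7 and 1 lower, where 18.3% of all tested genes were higher and 15.8% lower. Without DOX, 11 were higher and 1 lower, against 14.3% and 11.3%. Passage 7 libraries with DOX lay above all passage 4 libraries with DOX for 21 of the 37 and below them for 1, where 17.5% and 14.9% of tested genes did. Without DOX this held for 14 above and 1 below, where 14.6% and 12.3% did. The median log2 fold change of the 37 genes was 0.73 with DOX and 0.59 without it, beside -0.01 over all tested genes in each case. Library totals at the 2 passages overlapped, but how cultures of the passages were grown and processed together is not given, so passage and any batch of culture cannot be told apart.

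**Figure D4:**
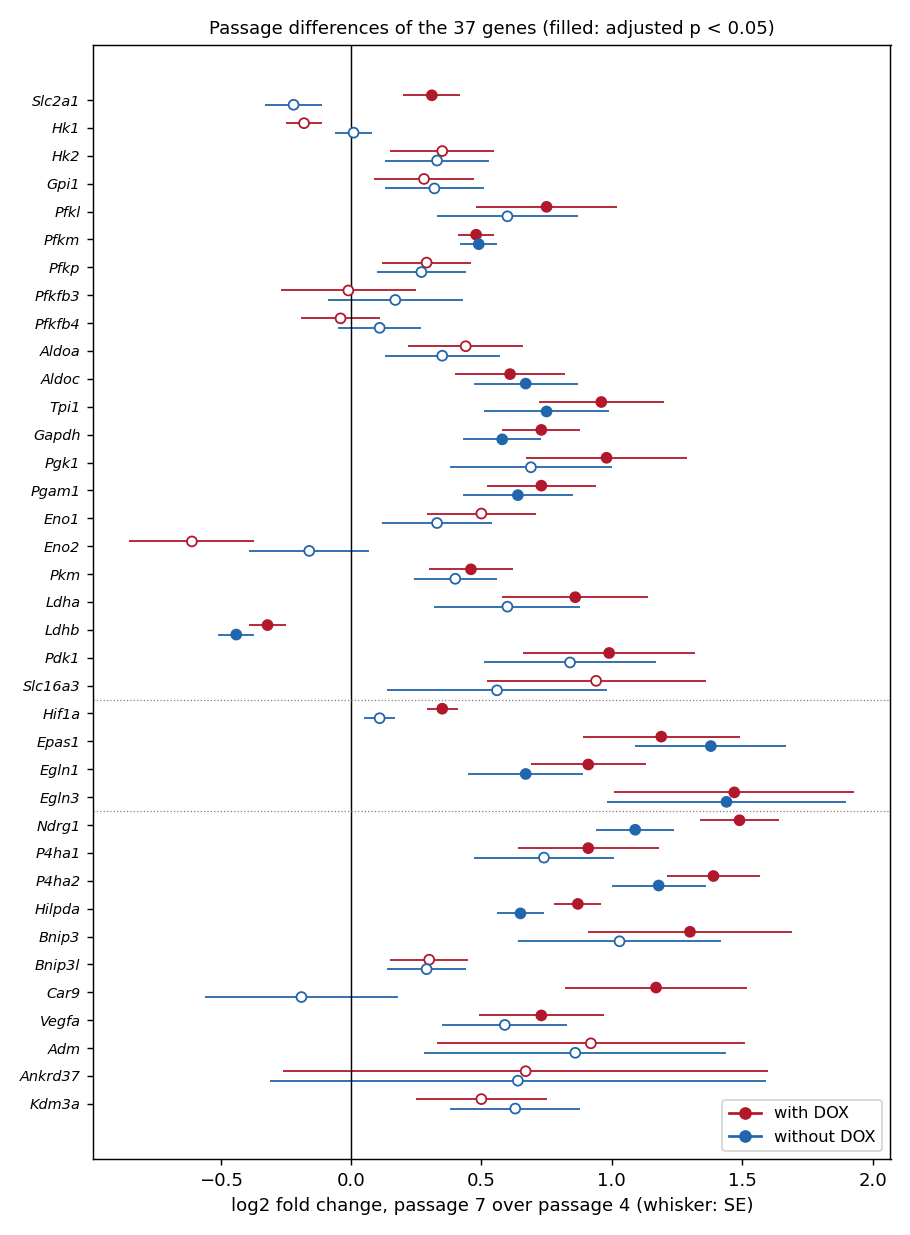
Log2 fold changes of passage 7 over passage 4 for the 37 genes, in red with DOX and in blue without; whiskers are the SE and filled points have an adjusted p under 0.05. Most points lie right of 0, Ldhb lies left of it in both colours, and whiskers are widest for Ankrd37, Adm and Egln3.

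By role, 11 of the 22 glycolytic genes were higher at passage 7 with DOX and 5 without it, with Ldhb the gene that was lower. All 4 oxygen-sensing genes were higher with DOX and 3 without it. Of the 11 HIF targets, 7 were higher with DOX and 3 without it. The medians were 0.47 with DOX and 0.37 without it for the glycolytic genes, 1.05 and 1.03 for oxygen sensing, and 0.91 and 0.65 for the HIF targets.

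Ndrg1 had the largest passage difference with DOX among the 37 genes. With DOX it had 593, 703, 570 and 605 CPM at passage 7, against 188, 296, 218 and 180 CPM at passage 4. Without DOX it had 389, 400, 329 and 313 CPM at passage 7, against 194, 188, 150 and 139 CPM at passage 4. No passage 7 library overlapped the passage 4 libraries of the same treatment. The rise was 1.49 (SE 0.15, edgeR adjusted p = 3.5e-06) with DOX and 1.09 (SE 0.15, edgeR adjusted p = 0.00011) without it.

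P4ha2 codes for a catalytic subunit of the enzyme that hydroxylates prolines in collagen. With DOX it had 294, 344, 289 and 288 CPM at passage 7, against 103, 151, 118 and 90.2 CPM at passage 4, and without DOX 277, 283, 240 and 219 CPM at passage 7, against 144, 129, 91.2 and 85.2 CPM at passage 4. Both pairs of groups stood apart. The rise was 1.39 (SE 0.18, edgeR adjusted p = 3.7e-05) with DOX and 1.18 (SE 0.18, edgeR adjusted p = 0.00024) without it. Its sister gene P4ha1 rose by 0.91 (SE 0.27, edgeR adjusted p = 0.02) with DOX, and without DOX its difference was 0.74 (SE 0.27, edgeR adjusted p = 0.062), or 0.81 with the block (edgeR adjusted p = 0.0055).

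Hilpda codes for a small lipid droplet protein that restrains fat breakdown. With DOX it had 24.3, 25.2, 28.6 and 26.8 CPM at passage 7, against 12.9, 13.6, 15.3 and 15.7 CPM at passage 4, and without DOX 25.4, 24.7, 28.3 and 25.8 CPM at passage 7, against 15.8, 15.2, 18.3 and 17 CPM at passage 4. Within each group it varied little, and no groups overlapped between the passages. The rise was 0.87 (SE 0.09, edgeR adjusted p = 8e-07) with DOX and 0.65 (SE 0.09, edgeR adjusted p = 3.3e-05) without it.

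Along the glycolytic route, Gapdh rose by 0.73 (SE 0.15, edgeR adjusted p = 0.0012) with DOX, with 2320, 2410, 2240 and 2180 CPM at passage 7 against 1360, 1630, 1420 and 1090 CPM at passage 4. Without DOX it rose by 0.58 (SE 0.15, edgeR adjusted p = 0.0086), with 1950, 2140, 1920 and 1800 CPM at passage 7 against 1590, 1570, 1060 and 987 CPM at passage 4. Gapdh is often used as a reference gene in quantitative PCR, and here its passage 7 levels lay above all passage 4 levels of the same treatment. Pfkm rose by 0.48 (SE 0.07, edgeR adjusted p = 4.6e-05) with DOX and 0.49 (SE 0.07, edgeR adjusted p = 5.6e-05) without it. The other glycolytic rises called in both were Aldoc, the triose phosphate isomerase gene Tpi1 and the phosphoglycerate mutase gene Pgam1, at 0.61 to 0.96 with DOX and 0.64 to 0.75 without it. Those called only with DOX were Slc2a1, Pfkl, Pgk1, Pkm, Ldha and the pyruvate dehydrogenase kinase gene Pdk1, at 0.31 to 0.99, and whether their passage response depends on DOX is the same contrast as the difference of DOX responses, for which edgeR without the block called none of them and DESeq2 called Slc2a1.

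Ldhb went the other way. It was at 275, 233, 260 and 234 CPM at passage 7 against 324, 311, 329 and 290 CPM at passage 4 with DOX, a change of -0.32 (SE 0.07, edgeR adjusted p = 0.0014). Without DOX the change was -0.44 (SE 0.07, edgeR adjusted p = 0.00014). The groups did not overlap in either case. Glycolytic genes with no passage call were Hk1, Hk2, Gpi1, Pfkp, Pfkfb3, Pfkfb4, Aldoa, Eno1, Eno2 and Slc16a3, the gene for the lactate exporter MCT4, and their differences ran from -0.61 to 0.94 with DOX and from -0.16 to 0.56 without it.

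Among the oxygen sensors, Epas1 had 3.61, 2.96, 2.68 and 3.43 CPM at passage 7 against 0.62, 2.29, 1.46 and 0.965 CPM at passage 4 with DOX, a rise of 1.19 (SE 0.30, edgeR adjusted p = 0.0047) at a low level. Without DOX the rise was 1.38 (SE 0.29, edgeR adjusted p = 0.0017). Hif1a rose by 0.35 (SE 0.06, edgeR adjusted p = 0.00012) with DOX, and without DOX its difference was 0.11 (SE 0.06, edgeR adjusted p = 0.20). Egln1, the main oxygen sensor of most cells, rose by 0.91 (SE 0.22, edgeR adjusted p = 0.006) with DOX and 0.67 (SE 0.22, edgeR adjusted p = 0.038) without it. Egln3, itself a HIF target, rose by 1.47 (SE 0.46, edgeR adjusted p = 0.025) with DOX and 1.44 (SE 0.46, edgeR adjusted p = 0.034) without it.

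The remaining HIF targets with a call with DOX were Bnip3, a mitophagy receptor gene, at 1.30 (SE 0.39, edgeR adjusted p = 0.02), Car9 at 1.17 (SE 0.35, edgeR adjusted p = 0.016), with means of 0.952 CPM at passage 7 and 0.432 CPM at passage 4, and Vegfa at 0.73 (SE 0.24, edgeR adjusted p = 0.034). Bnip3 shares 22.3% of its exon bases with the antisense gene Gm45507. The mitophagy receptor gene Bnip3l, the vasodilator peptide gene Adm, the ankyrin repeat gene Ankrd37 and the histone demethylase gene Kdm3a had no passage call, at 0.30 to 0.92 with DOX and 0.29 to 0.86 without it.

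The number of passage calls rested on the replicates. With the replicate block, 29 genes were higher and 3 lower at passage 7 with DOX, where 23.2% of tested genes were higher and 21.6% lower, and without DOX 22 were higher and 2 lower, against 19.6% and 17.4%. Among the rises the block added Adm, Aldoa, Eno1, Hk2, Kdm3a, Pfkp and Slc16a3 with DOX, at 0.31 to 1.06, and Adm, Bnip3, Hk2, Kdm3a, Ldha, P4ha1, Pdk1, Pfkl, Pgk1, Pkm and Vegfa without it, at 0.31 to 1.13. Among the falls it added Hk1 (-0.18) and Eno2 (-0.61) with DOX and Slc2a1 (-0.23) without it. In replicates 3 and 4 alone the median difference of the 37 genes was 0.81 with DOX and 0.79 without it. In replicates 1 and 2 alone it was 0.58 with DOX and 0.38 without it. Without DOX, 6 genes were higher when passage 7 replicate 1 or 2, or passage 4 replicate 3 or 4, was left out, where 11.8% to 12.4% of tested genes were. Aldoc, Tpi1, Pgam1, Egln1 and Egln3 were not called in any of those 4 fits, and Tpi1, Pgam1 and Egln1 also not without passage 7 replicate 3. Their differences in the fits that lost the call were 0.53 to 0.65 for Aldoc, 0.58 to 0.77 for Tpi1, 0.50 to 0.67 for Pgam1, 0.55 to 0.70 for Egln1 and 1.20 to 1.35 for Egln3. With DOX, 12 were higher without passage 7 replicate 2, and 12, 13 and 11 without passage 4 replicate 1, 3 and 4, where 15.6% to 17.2% of tested genes were. Pfkl lost its call with DOX in 11 of 16 fits (0.57 to 0.81), Pkm in 7 (0.35 to 0.49), Pdk1 in 7 (0.79 to 1.03), Ldha in 6 (0.69 to 0.90), Aldoc in 6 (0.47 to 0.62), Slc2a1 in 5 (0.24 to 0.29), Vegfa in 5 (0.61 to 0.73), Egln3 in 4 (1.25 to 1.44), Pgk1 in 3 (0.80 to 0.95), Car9 in 2 (0.99 and 1.01), P4ha1 in 2 (0.74 and 0.86) and Bnip3 in 1 (1.26). These fits left out passage 4 replicate 1, 3 or 4 with DOX or a passage 7 library with DOX, except 4 for Pfkl, each without 1 of the passage 7 libraries without DOX. The other 10 rises and the fall of Ldhb were called in all 16 fits. Passage 4 replicate 2 with DOX stood apart from its group: its median over the 37 genes, relative to each gene's mean over the 16 libraries, was 0.09, whereas the other 3 libraries were at -0.40, -0.38 and -0.75, and without it 28 genes were higher with DOX, where 16.1% of tested genes were. The leukocyte marker sums given above were higher at passage 7 with DOX and without it, as were Csf1r and Cd68, whereas Ptprc was lower, by -3.66 with DOX and -1.68 without it. Fibroblast marker sums were also higher at passage 7, with Dcn (1.85 with DOX and 2.22 without it) and Col1a1 (1.54 and 1.76) called. Among the principal cell markers, Scnn1b (-2.2 with DOX and -2.12 without it), Hoxb7 (-0.83 and -0.54) and Cdh16 (-1.01 and -0.41) were called lower in both. Scnn1a (0.54 and 0.59), Gata3 (0.62 and 1.21), Krt8 (0.52 and 0.21) and Krt18 (0.49 and 0.31) were called higher in both. Scnn1g (-1.29) and Hsd11b2 (0.57) were called without DOX only, and Cdh1 (-0.21) with it only. The 6 intercalated cell markers summed to 5.43 to 7.13 CPM at passage 7 against 13.1 to 29.0 CPM at passage 4 with DOX, and to 6.29 to 11.6 CPM against 15.6 to 24.7 CPM without it, nearly all of it Atp6v0d2, with Atp6v1g3 and Aqp6 at 0. The part of all these markers in the passage results was not tested.

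Of the 79 further pathway genes tested, 24 were higher and 3 lower at passage 7 with DOX, where 18.3% and 15.8% of all tested genes were. Without DOX 17 were higher and 6 lower, where 14.3% and 11.3% were. With DOX, the smallest adjusted p among the rises were those of Stc2 (1.12), the carbonic anhydrase gene Car12 (1.02), Pklr (1.17) and Ero1a (1.35), which codes for an oxidase of the endoplasmic reticulum, and Arnt2 (-1.46), the mitochondrial pyruvate carrier gene Mpc2 (-0.58) and the pyruvate dehydrogenase kinase gene Pdk4 (-0.83) were lower. Without DOX, by the same order, the rises began with Pklr (1.33), Hif3a (1.17), Slc16a1 (0.72) and Cited2 (0.50), which codes for a brake on HIF, and the falls with Arnt2 (-1.44), Pdk3 (-0.39), Mpc2 (-0.42) and Hmox1 (-0.30). The further HIF targets alone had 18 of 35 higher with DOX and 12 without it, beside 18.3% and 14.3% of all tested genes.

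The 37 genes also differed between replicates of the same group. Replicates 3 and 4 were lower than replicates 1 and 2 in 29 of the 37 genes and higher in 1, with group held constant, where 19.5% of all tested genes were lower and 17.5% higher. The median log2 difference was -0.40, beside 0.00 over all tested genes. In passage 4 libraries with DOX, the median of the 37 genes was not higher in replicate 1 than in replicate 3. Single genes, among them Ankrd37, Kdm3a, Adm and Hk2, were higher in replicate 1. Relative to each gene's mean over the 16 libraries, the medians of the 37 genes there were -0.40 in replicate 1 and -0.38 in replicate 3. Replicate 2 of that group was at 0.09 and replicate 4 at -0.75. The labels do not say what replicates 3 and 4 share. The split had been noticed in earlier results of these data, so its p-values describe these libraries.

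The low genes spanned every role: 18 of the 22 glycolytic genes, 3 of the 4 oxygen sensors and 8 of the 11 HIF targets were lower. In 11 genes the sets stood apart the same way in all 4 groups, 10 below and 1 above, where 8.75% of tested genes were below and 6.1% above throughout. Those below were Slc2a1, Hk2, Pfkl, Pdk1, Slc16a3, Egln3, P4ha1, Adm, Ankrd37 and Kdm3a, and the gene above was Hilpda.

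Ankrd37, an ankyrin repeat gene activated by HIF, differed most. Replicates 3 and 4 had 9.73 and 10.9 CPM at passage 7 with DOX, against 33.5 and 39.2 CPM in replicates 1 and 2, and 10.6 and 8.13 CPM without DOX, against 34.4 and 34.9 CPM. At passage 4 they had 2.06 and 2.57 CPM with DOX, against 18.3 and 33.3 CPM in replicates 1 and 2, and 2.66 and 1.8 CPM without DOX, against 28.4 and 25.1 CPM. The sets did not overlap in any group. The difference was -2.42 (SE 0.25, edgeR adjusted p = 1.5e-05). In a fit with a set difference for each passage, added after the data had been seen, it was -1.84 (SE 0.15) at passage 7 and -3.52 (SE 0.20) at passage 4, and these differed by 1.68 (SE 0.27, edgeR adjusted p = 0.0041). Replicates 3 and 4 alone showed a passage rise of 2.15 (edgeR adjusted p = 6e-10) with DOX and 2.06 (edgeR adjusted p = 5.5e-09) without it, whereas replicates 1 and 2 alone gave 0.48 (edgeR adjusted p = 0.23) and 0.39 (edgeR adjusted p = 0.35). Ankrd37 shares 22.7% of its exon bases with Lrp2bp and 3.7% with Ufsp2, both on the opposite strand.

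Adm, the adrenomedullin gene, had 6.68 and 8 CPM in replicates 3 and 4 at passage 7 with DOX, against 21.4 and 33.9 CPM in replicates 1 and 2, and 10.4 and 10.3 CPM without DOX, against 33.7 and 31.4 CPM. At passage 4 the values were 6.27 and 7.16 CPM with DOX, against 9.15 and 13.3 CPM, and 7.46 and 6.25 CPM without DOX, against 17.7 and 16.5 CPM. Its sets were apart in each group, most widely at passage 7. The difference was -1.47 (SE 0.15, edgeR adjusted p = 5.1e-06).

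Hk2, the inducible hexokinase gene, had 260 and 273 CPM in replicates 3 and 4 at passage 7 with DOX, against 413 and 456 CPM in replicates 1 and 2, and 229 and 266 CPM at passage 4 with DOX, against 285 and 322 CPM. Its difference was -0.49 (SE 0.05, edgeR adjusted p = 1.2e-06) over all libraries, and it was larger at passage 7 than at passage 4 by -0.32 (SE 0.07, edgeR adjusted p = 0.011). Kdm3a, which removes methyl groups from histone H3, had 175 and 184 CPM in replicates 3 and 4 at passage 7 with DOX, against 213 and 250 CPM in replicates 1 and 2, and 111 and 106 CPM at passage 4 with DOX, against 163 and 203 CPM. Its difference was -0.57 (SE 0.08, edgeR adjusted p = 0.0001), and unlike Hk2 it was smaller at passage 7, by 0.46 (SE 0.08, edgeR adjusted p = 0.0041). Slc2a1 and the constitutive hexokinase gene Hk1 differed by less, -0.26 (SE 0.04, edgeR adjusted p = 2.8e-06) and -0.15 (SE 0.03, edgeR adjusted p = 0.00047), with narrow errors.

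**Figure D5:**
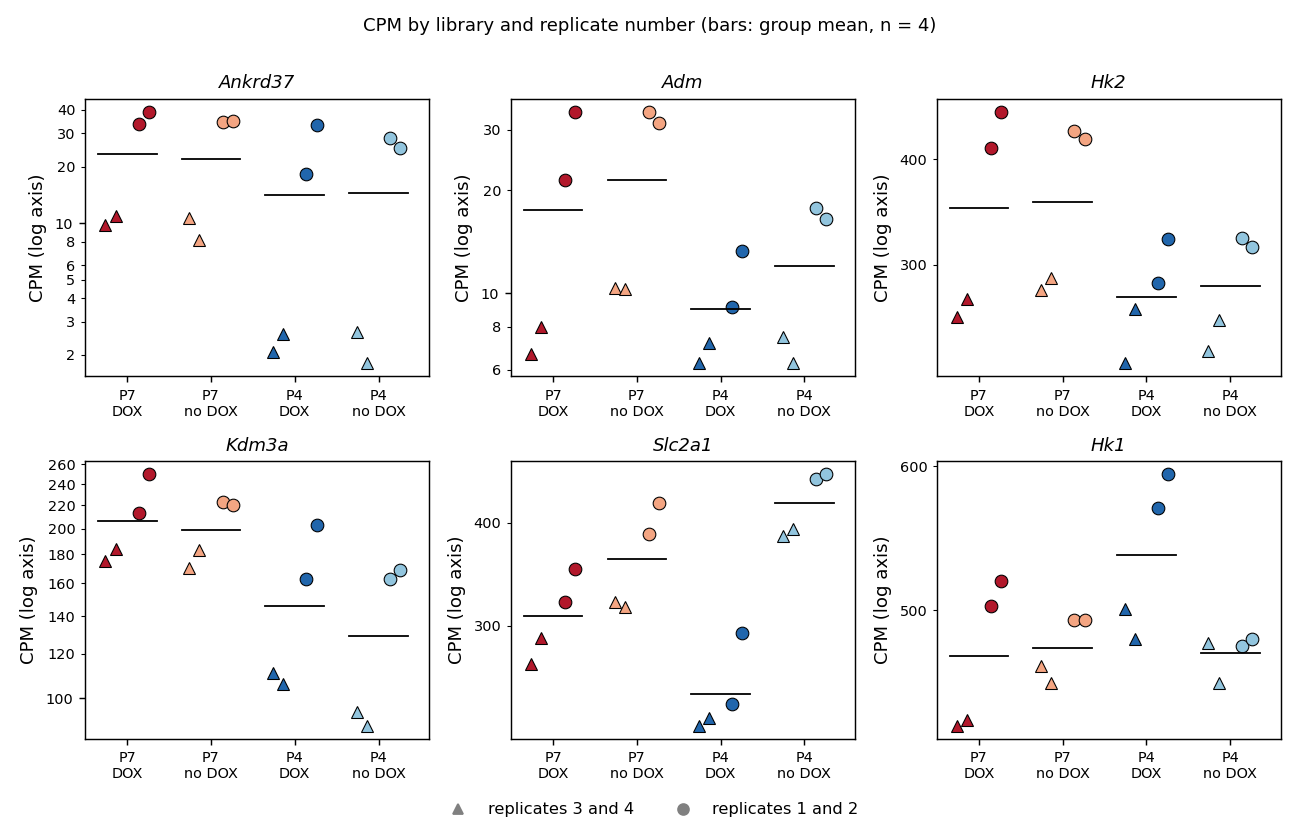
CPM of 6 genes on log axes in each library, by group; triangles are replicates 3 and 4, circles replicates 1 and 2, and horizontal bars group means (n = 4). Triangles lie below circles in every group for Ankrd37, Adm, Hk2, Kdm3a and Slc2a1, and for Hk1 in every group but passage 4 without DOX.

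The other 23 genes that were lower ranged from -0.97 (Egln3) to -0.09 (Hif1a). Hilpda was higher, at 0.17 (SE 0.05, edgeR adjusted p = 0.0097). Without a call were Pfkm (-0.01), Pfkfb4 (0.16), Eno2 (-0.03), Ldhb (0.04), Epas1 (0.09), Bnip3l (-0.25) and Car9 (0.10). Ldhb and Pfkm, which fell with DOX at both passages, were at -0.03 to 0.11 in each passage in the fit with a set difference for each.

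The number of set calls depended on the fit and on the libraries used. The fits below did not agree on which passage had more. In the fit with a difference for each passage, 8 of the 37 genes were lower at passage 7, where 15.0% of tested genes were, and 28 were lower and 1 higher at passage 4, where 15.8% were lower and 13.1% higher. The medians were -0.21 at passage 7 and -0.56 at passage 4. The difference itself was called for Ankrd37, Kdm3a and Hk2, against 2.25% of tested genes called higher and 2.14% lower. With passage 7 libraries alone 26 genes were lower, where 15.7% of tested genes were, and with passage 4 libraries alone 17, where 14.0% were. The medians in these 2 subsets were -0.21 and -0.55, so the counts changed with the fit while the medians changed little. With DOX libraries alone 6 were lower, near the background of 12.8%, and with libraries without DOX alone 19, where 12.3% were. In the fit of all libraries, 4 of the 29 calls were lost in some fits that left out 1 library: those of Pgk1 in 7 of 16 fits (-0.53 to -0.42), Bnip3 in 6 (-0.61 to -0.55), Gpi1 in 4 (-0.33 to -0.29) and Hif1a in 4 (-0.09 to -0.08). All but 1 of these fits left out a passage 4 library, the other being passage 7 replicate 4 without DOX for Pgk1. The sets had like depth, 9937504 to 16191097 counts in replicates 3 and 4 and 11486047 to 17188295 in replicates 1 and 2. Leukocyte marker sums were 20.1 to 67.2 CPM in replicates 3 and 4 and 23.8 to 75.2 CPM in replicates 1 and 2.

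Among the further pathway genes, 29 of 79 were lower in replicates 3 and 4 and 8 higher, where 19.5% of all tested genes were lower and 17.5% higher. The cyclin G2 gene Ccng2 (-0.55), the glycogen-targeting phosphatase subunit gene Ppp1r3b (-1.28), Narf (-0.48) and the glycogen synthase gene Gys1 (-0.32), all listed as HIF targets, had the smallest adjusted p among the falls. The pyruvate dehydrogenase subunit gene Pdhb (0.23), the ubiquitin ligase gene Siah1a (0.37), the endothelin gene Edn1 (0.64) and Pdk4 (0.42) had the smallest among the rises. The further HIF targets had 23 of 35 lower and 2 higher, whereas the further glycolysis and pyruvate genes had 3 of 29 lower and 4 higher.

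Some of these genes share sequence with others in the annotation. Pseudogenes or copies named after Aldoa, Gapdh, Pgk1, Pgam1, Eno1, Ldha and Bnip3l held counts equal to 0.0054% to 0.911% of each gene's own total, and reads that fit both were handled in a way the sources used here do not state. These levels are uncertain to that extent or more. The strand setting of the counting is not given either, and without it reads of a gene and its opposite-strand partner cannot be told apart. Slc2a1 overlaps the antisense gene Gm12868 over 2.99% of its exon bases, and Gpi1 overlaps Gm26762 over 11.5%.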

How the data were processed

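RNA of 16 libraries was measured. Per the labels' protocols, poly(A) RNA was selected, strand-marking libraries were sequenced as 2 reads of 75 bases per fragment, and STAR 2.6.0c aligned the reads to GRCm38.p6. What the authors deposited were raw counts per gene, whole numbers without normalization, and a table of TPM values. The counting tool and strand setting are not given in the sources used here. The TPM values served only to compare column headers.

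The filterByExpr rule kept 15316 of 55536 genes. The main test was the robust quasi-likelihood test of edgeR 4.0.16 (R 4.3.3) on TMM-scaled counts, with a mean for each of the 4 groups, which leaves 12 residual degrees of freedom among 16 libraries, and with Benjamini-Hochberg adjustment over all tested genes. The replicate set difference used the same fit with a set term. The code was tested on simulated data. Libraries of a group differed by more than sampling noise, with a chi-square per degree of freedom of 1.88 to 4.7 within a replicate set and 10.5 to 19.2 across the sets, so none was counted as a copy.

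Alternatives were DESeq2 1.42.0, its size factors, no filter, a replicate block, a set term, subsets of libraries and leaving out each library. The deviations of same-numbered libraries from their group means correlated at r = 0.21 to 0.42 in 24 pairs. Libraries of the same set with other numbers correlated as much, at 0.21 to 0.45, and those of the other set at -0.39 to -0.2. Of the 16 libraries, 8 correlated best with their own number. These correlations follow the split between the sets and do not show that the numbers pair the libraries. The replicate block is therefore given beside the main test, not in its place.

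The members, the further pathway genes and the markers were chosen with earlier results of these data known. Genes named for a comparison were those past the threshold in order of adjusted p, up to 6 in each direction for the 37 and up to 4 for the further genes, with Hif1a, Epas1 and Pkd2 always given. A further pathway gene on the list is not reported here and enters none of the counts of that list. Gene models and exon lengths came from GENCODE M21, and promoters from RefSeq. Relative to the level, counting error is largest for genes near 1 CPM such as Car9 and Epas1. For genes that varied little, such as Pfkm at passage 7 with DOX (mean 43.3 CPM, SD 0.825), it may be no smaller than the spread between libraries.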

Additional observations from a re-analysis of the deposited data

Results flagged for a closer look

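In 148 groups of 4 libraries, 4 for each of the 37 genes, the highest or lowest library was compared with the rest of its group, and 2 stood apart, where chance alone flags about 1 group in 20. Hk1 was lowest in replicate 4 of passage 4 without DOX, at 456 CPM, beside 478 to 482 CPM in the other 3 libraries. P4ha2 was highest in replicate 2 of passage 7 with DOX, at 344 CPM, beside 288 to 294 CPM in the other 3. Hk1 kept its call between the replicate sets, and P4ha2 its calls for passage, in all 16 fits that left out 1 library. The calls of Hk1 with the replicate block were not refitted without a library.

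Among the 79 further pathway genes tested, 1 responded to DOX differently at the passages by the test of the difference itself. Of all tested genes, 0.516% were called higher and 0.679% lower by that test, so 1 gene is near the background. Hmox1 had 58.1 CPM at passage 7 with DOX and 59.3 CPM without it, and 46.7 CPM at passage 4 with DOX and 73.0 CPM without it, a difference of 0.61 (SE 0.11, edgeR adjusted p = 0.0084).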

How the results depend on the processing

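Calls of single genes, those of the 37 and of Pkd2, kept their direction in every alternative run. None was lost with DESeq2, its size factors, the replicate block or the set term. Of 83 calls 19 were lost with no filter, of 52 in replicates 1 and 2 alone 13, of 53 in replicates 3 and 4 alone 4, and of 1328 in the fits without 1 library 129. Between the sets, of 30 calls 14 were lost with passage 4 alone, 4 with passage 7 alone, 24 with DOX alone and 12 without DOX alone. Medians of the 37 genes turned sign for DOX only: they ran over all alternatives from -0.29 to 0.11 at passage 4, -0.03 to 0.09 at passage 7, -0.10 to 0.08 averaged and -0.04 to 0.28 for the difference, beside 0.38 to 0.79 by passage without DOX, 0.57 to 0.85 with it and -0.55 to -0.21 between the sets. The share of all tested genes called, higher and lower, also moved. Over the alternatives other than leaving out 1 library it was 3.74% to 13.9% and 4.14% to 14.5% for DOX at passage 4, 5.32% to 15.7% and 4.83% to 17.1% at passage 7, 7.5% to 20.7% and 7.59% to 22.1% averaged, 0.322% to 2.26% and 0.342% to 3.18% for the difference, 6.04% to 20.1% and 5.32% to 18.1% by passage without DOX, 8.53% to 23.8% and 6.75% to 22.2% with it, and 8.57% to 17.8% and 9.97% to 19.1% between the sets. At passage 4, genes higher with DOX numbered 2 by DESeq2, 3 with the replicate block or a set term, 2 in replicates 1 and 2 alone and 4 in replicates 3 and 4 alone, against 1. Genes lower there numbered 5 in replicates 3 and 4 alone, against 3. At passage 7, genes higher numbered 4 in replicates 3 and 4 alone, and genes lower 5 with the block or set term and 6 in replicates 3 and 4 alone. Averaged, 5 were higher in replicates 3 and 4 alone. A higher DOX response at passage 7 was called for 1 gene by DESeq2 and in replicates 1 and 2 alone, and for 2 with the block, the set term and in replicates 3 and 4 alone. By passage without DOX, genes higher numbered 6 with no filter, which raised the genes tested to 29859, 22 with the block or set term and 24 in replicates 3 and 4 alone, and genes lower 2 with the block, the set term or replicates 3 and 4 alone. By passage with DOX, genes higher numbered 13 with no filter, and genes lower 2 by DESeq2, its size factors or replicates 1 and 2 alone, and 3 with the block, the set term or replicates 3 and 4 alone. Between the sets, genes lower numbered 17 at passage 4, 6 with DOX and 19 without DOX, and genes higher 0 in these 3 subsets and at passage 7. The cause of these shifts was not tested. Leaving out 1 library gave 0 to 3 genes higher and 3 lower with DOX at passage 4, 2 higher and 2 to 3 lower at passage 7, 2 to 3 higher and 3 to 6 lower averaged, and 0 to 1 with a higher response at passage 7. It gave 6 to 15 higher and 1 lower by passage without DOX, 11 to 28 higher and 1 to 3 lower with it, and 1 higher and 25 to 30 lower between the sets. In these fits the shares of all tested genes, higher and lower, were 6.67% to 8.38% and 7.22% to 8.96%, 8.49% to 11.4% and 9.27% to 12%, 14.2% to 15.6% and 14.8% to 16.6%, and 0.291% to 0.613% and 0.394% to 0.871% for the 4 DOX results in that order, then 11.8% to 14.7% and 9.02% to 11.8%, 15.6% to 18.3% and 12.6% to 15.5%, and 15.2% to 17.4% and 17.8% to 18.7%. Of the DOX calls, without the filter Eno2 at passage 7 (-0.68) and Vegfa averaged (0.53) were not called. In replicates 1 and 2 alone, Pfkm at passage 4 (-0.23), Eno2 at passage 7 (-0.59) and averaged (-0.13), Ndrg1 at passage 7 (0.72) and averaged (0.53) and Vegfa averaged (0.35) were not called. Between the sets, Hilpda, the 1 rise, was not called in any of the 4 subsets (0.14 to 0.22). The averaged fall of Eno2, -0.47 (SE 0.17, edgeR adjusted p = 0.037), was lost in 9 of 16 fits without 1 library. Depth limits what can be said of Car9, Epas1 and Eno2, which had few counts.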
